A study of Mus musculus with 2 samples.

Results

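The family of miR-148 and miR-152 comprises 3 microRNA (miRNA) genes of the mouse, Mir148a, Mir148b and Mir152. The genes were taken by name, through the Ensembl identifiers of the count tables, and all 3 of the 3 were found among 1973 measured miRNA genes. Small RNA libraries (RNA below 30 bases) were made from the neural tube, the embryonic name for the tissue of brain and spinal cord, of newborn mice of the strain B6NCrl at postnatal day 0. The data held 1 group of 2 libraries, from a single neural tube of pup 2 and of pup 1, littermates of 1 dam, with no genetic change or treatment named and sex not collected. No comparison between conditions therefore existed, and the values below describe the level of each gene and the difference between the 2 pups.

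A miRNA is cut from a hairpin precursor into a 5p and a 3p arm, and the arm that is loaded into the silencing complex pairs with target mRNAs mainly through its seed, the bases 2 to 8. Members of this family carry the same seed on the 3p arm, so they can pair with the same target sites. The family is best known for acting on mRNAs of DNA methyltransferases in human cells. Mir148a is also known for abundance in liver and for acting on the LDL receptor and on the cholesterol transporter Abca1.

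The mature sequences are shown because the family is defined by them and because reads of such similar miRNAs have to be told apart. They came from RefSeq (GRCm38.p6), where all 3 members were matched, and capitals mark the seed.
miR-148a-3p: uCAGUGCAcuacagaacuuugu
miR-148b-3p: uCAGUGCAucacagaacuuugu
miR-152-3p: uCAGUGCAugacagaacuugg
miR-148a-5p: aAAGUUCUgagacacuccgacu
miR-148b-5p: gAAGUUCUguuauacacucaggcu
miR-152-5p: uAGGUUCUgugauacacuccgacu
Besides these 3, none of the 1679 mature miRNAs in the RefSeq table had the 3p seed at bases 2 to 8. Counted from 1 at the 5′ end, the 3p arms of miR-148a and miR-148b differed by C9U and U10C and were identical at 20 of 22 bases. From miR-148a to miR-152 the changes were C9U, U10G and U20G, and from miR-148b to miR-152 they were C10G and U20G. All of these differences lay outside the seed. On the 5p arm, miR-148a and miR-148b shared a seed that no further mature miRNA in the table had, whereas the 5p seed of miR-152 was found in no other.

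The same 7 bases stood at bases 1 to 7 in 7 other mature miRNAs, among them members of the family of miR-130 and miR-301, in which capitals mark them here.
miR-130a-3p: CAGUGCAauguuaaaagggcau
miR-130b-3p: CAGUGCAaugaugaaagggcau
miR-301a-3p: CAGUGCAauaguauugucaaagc
Their seeds are thus shifted by 1 base against that of miR-148a, miR-148b and miR-152. At any position the 7 bases occurred in 17 (1.01%) of the 1679 mature miRNAs.

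The precursors were less alike than the mature arms. The hairpins are given with both mature arms in capitals.
Mir148a hairpin: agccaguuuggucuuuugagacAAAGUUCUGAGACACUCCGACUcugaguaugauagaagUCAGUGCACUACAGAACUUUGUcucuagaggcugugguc
Mir148b hairpin: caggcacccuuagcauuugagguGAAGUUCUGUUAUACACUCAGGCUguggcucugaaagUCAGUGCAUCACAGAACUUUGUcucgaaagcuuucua
Mir152 hairpin: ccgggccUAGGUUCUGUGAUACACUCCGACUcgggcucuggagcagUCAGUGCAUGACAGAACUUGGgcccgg
Aligned end to end, the Mir148a and Mir148b hairpins were identical at 68.9% of aligned positions, Mir148a and Mir152 at 58.4%, and Mir148b and Mir152 at 59.6%. The longest stretch that Mir148a and Mir148b shared was 15 bases. None of the 3 precursors shared a stretch of 22, 20 or 18 bases with any other of the 1894 annotated miRNA precursors. Among 141767 annotated transcripts, no mature arm matched another gene with 0 or 1 mismatch, and with 2 mismatches the 3p arms of miR-148a and miR-148b matched each other and that of miR-152 matched Mir148b. The search did not cover introns or the space between genes, so places there that fit a read were not examined.

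All 3 genes lie on different chromosomes (mm10, GENCODE M21). Mir148a lies at chr6:51269812-51269910 on the minus strand, with no annotated gene around it, and the nearest protein-coding gene, Nfe2l3, was 162.8 kb away. Mir148b lies at chr15:103285125-103285221 on the plus strand, in an intron of all 4 annotated transcripts of Copz1. Mir152 lies at chr11:96850393-96850465 on the plus strand, in an intron of 3 of the 5 annotated transcripts of Copz2 and in an exon of none. Copz1 and Copz2 are related genes for the zeta subunit of the COPI coat, which carries vesicles back from the Golgi. In the reference transcript of each host (Copz1-201 and Copz2-201) the miRNA gene was in the same place, intron 1 of 8 and on the strand of the host. The 2 host transcripts had 9 exons each, of which 7, exons 2 to 8, were of equal length.

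**Figure D1:**
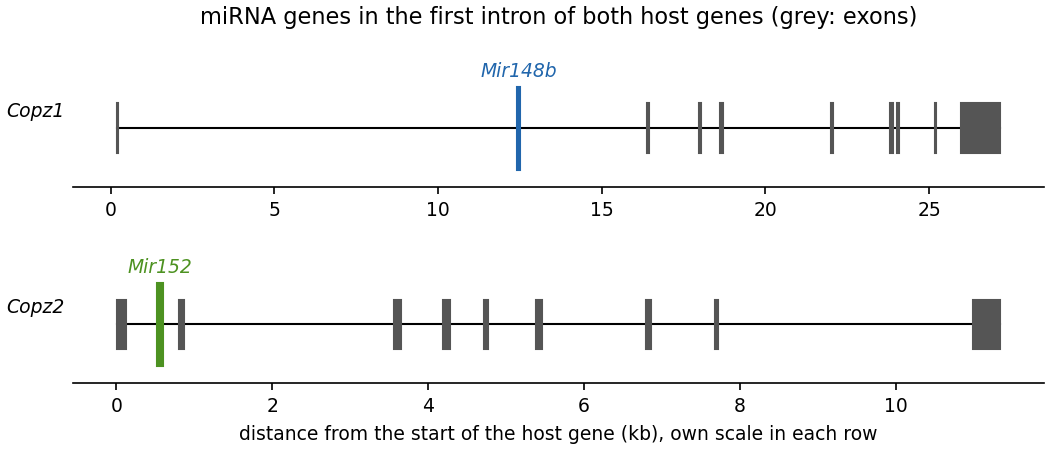
Map of Copz1 with Mir148b (above) and Copz2 with Mir152 (below), drawn to scale as distance in kb from the start of each host gene, with grey boxes for the 9 exons of each transcript and a coloured bar for the miRNA gene. Both miRNA genes lie in intron 1, Mir148b starting 12411 bp and Mir152 523 bp from the start of its host.

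The surroundings of the 3 genes shared a feature as well. Each had a gene of the NFE2 family of transcription factors on its chromosome, with Nfe2l3 at 162.8 kb from Mir148a, Nfe2 at 26.72 kb from Mir148b and Nfe2l1 at 20.43 kb from Mir152. Outside its host, the nearest protein-coding gene to Mir148b was Gpr84, at 23.01 kb. The NFE2 genes were looked up after the values of the miRNA genes were known, and no other gene family was searched for.

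The libraries held 3660693 own-strand miRNA counts in pup 2 and 3216453 in pup 1, so that 1 count equals 0.273 CPM (counts scaled to 1000000 own-strand counts) in pup 2 and 0.311 CPM in pup 1. Reads that fitted several places made up 35.4% of all reads in pup 2 and 35.7% in pup 1 and were counted to no gene. Neuronal marker miRNAs were present, with 9 genes summing to 23795 CPM in pup 2 and 20673 CPM in pup 1, most of it from Mir137 (72.0% in pup 2 and 72.7% in pup 1). These shares are upper values, since the list holds Mir124a genes that make the same mature miRNA and are counted by uniquely placed reads only. Detection asked for 10 or more counts in each pup and was met by 352 genes, the 3 members among them. At all 3 loci the column taken as the opposite strand had 0 counts in both pups. Other genes, such as Mir25 and Mir99b, also had 0 there, and for how many this held was not counted. Over all genes the column held 81286 counts in pup 2 and 68949 in pup 1, of which Gm25252 alone had 23179 and 21226.

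Mir148a was the most abundant member. It had 1817 counts (496 CPM, exact Poisson 95% interval 474 to 520) in pup 2 and 1037 counts (322 CPM, 303 to 343) in pup 1. The mean was 409 CPM ± 123 (SD, n = 2), rank 131 of 1973. Of all detected genes, 62.8% had a lower mean. Intervals cover counting error only, since each was computed from the count of 1 library. No molecular identifiers are stated for the reads, so repeat reads of 1 molecule could not be removed and the intervals may be too narrow.

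Mir148b came next, with 986 counts (269 CPM, interval 253 to 287) in pup 2 and 891 counts (277 CPM, interval 259 to 296) in pup 1. Its mean was 273 CPM ± 5.42 (SD, n = 2), rank 154, and the intervals of the pups overlapped. Mir152 was the lowest, with 450 counts (123 CPM, interval 112 to 135) in pup 2 and 320 counts (99.5 CPM, interval 88.9 to 111) in pup 1. Its mean was 111 CPM ± 16.6 (SD, n = 2), rank 206. The order Mir148a, Mir148b, Mir152 was the same in both pups.

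**Figure D2:**
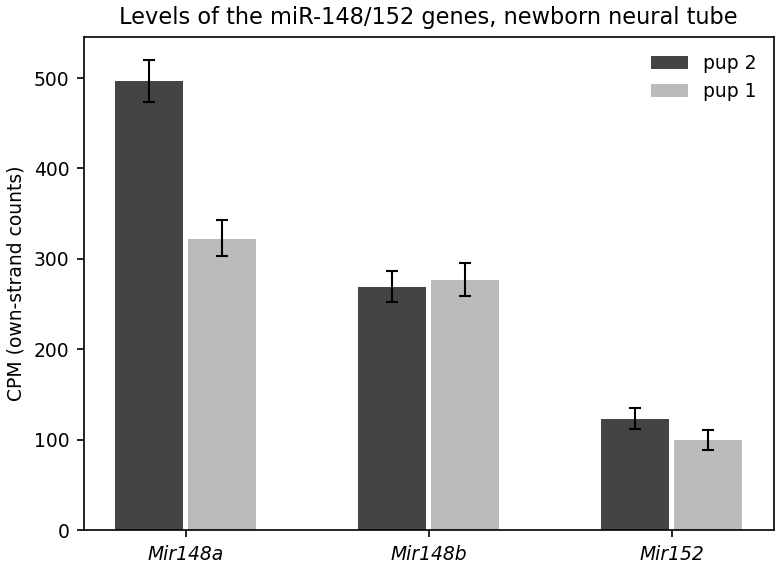
Levels of Mir148a, Mir148b and Mir152 in CPM, with a dark bar for pup 2 and a light bar for pup 1 and error bars for the exact Poisson 95% interval of the count. The intervals of the pups are apart for Mir148a (496 CPM in pup 2 against 322 CPM in pup 1) and overlap for Mir148b (269 and 277 CPM, in the same order).

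Together the genes held 0.0889% of the own-strand counts in pup 2 (exact binomial 95% interval 0.0858 to 0.0920%) and 0.0699% in pup 1 (0.0670 to 0.0728%). The summed level was 794 CPM ± 134 (SD, n = 2). Counts were not divided by length, because the 3p arms are 21 or 22 bases long. The tables count reads per precursor gene, so the 5p and 3p arms cannot be told apart. In whole tissue, fewer cells of a type and less RNA per cell cannot be told apart either.

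Differences between members were set against the spread between pups, pooled over genes of like abundance, since an exact sign-flip test over 2 libraries cannot go below 0.5. A difference in mean log2(CPM + 1) counted as beyond the spread where it passed the two-sided 95% normal limit of the pooled SD. Mir148a lay 3.59-fold above Mir152 (4.04-fold in pup 2, 3.24-fold in pup 1), a log2 difference of 1.85 against a limit of 0.44. Mir148b lay 2.46-fold above Mir152 (2.19-fold in pup 2, 2.78-fold in pup 1), a log2 difference of 1.30 against the same limit. Both of these differences were larger than the spread between the pups.

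Mir148a against Mir148b was less settled. The log2 difference was 0.55, above the limit of 0.41, but it came to 1.84-fold in pup 2 and 1.16-fold in pup 1. In pup 1 alone, without pup 2, the log2 difference was 0.22 against a limit of 0.58 for a single library, and the difference was then not beyond the spread. The pooled SD holds differences between the pups only, and a bias between sequences that both libraries share is not in it.

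The make-up of the family differed between the pups in a measure that no library scaling can move. Mir148a held 55.9% of the counts of the 3 genes in pup 2 (exact binomial 95% interval 54.1 to 57.6%) and 46.1% in pup 1 (44.1 to 48.2%). Mir148b held 30.3% in pup 2 (28.7 to 31.9%) and 39.6% in pup 1 (37.6 to 41.7%). The share of Mir152 was 13.8% in pup 2 (12.7 to 15.1%) and 14.2% in pup 1 (12.8 to 15.7%). The intervals of the pups did not overlap for Mir148a and Mir148b, and overlapped for Mir152. Shares of a common sum depend on each other, so these are not separate differences. In CPM, Mir148b was at 269 in pup 2 and 277 in pup 1, with overlapping intervals. The intervals of the shares hold counting error only, and for how many of all genes such intervals lie apart was not counted. The binomial test below, on another measure, the share of a gene in the library, called 40.9% of the genes tested.

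**Figure D3:**
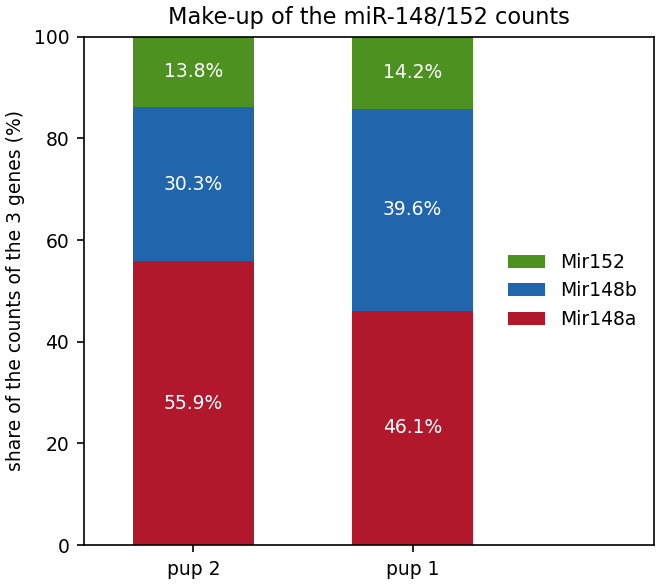
Share (%) of the own-strand counts of the 3 genes held by Mir148a (red), Mir148b (blue) and Mir152 (green) in pup 2 and pup 1. Mir148a holds 55.9% in pup 2 and 46.1% in pup 1, Mir148b 30.3% and 39.6%, and Mir152 13.8% and 14.2%, each with pup 2 first.

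Gene by gene, the pups were compared by the exact binomial test (two-sided, given the library totals), with Benjamini-Hochberg adjustment over 413 genes with at least 10 counts in sum. The test called 169 genes (40.9% of those tested), 106 higher in pup 2 (25.7%) and 63 lower (15.3%). It compares 2 libraries and measures counting error only, and these pups give no separate estimate of how far 2 like libraries vary. Against that background, 2 of the 3 members were called higher in pup 2 and none lower. With more counts the test calls smaller differences, so the share called in any list below also depends on the abundance of its genes.

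Mir148a was 1.54-fold higher in pup 2, a log2 ratio of 0.62 with an adjusted p of 2.2e-28 by the exact binomial test. Calls of at least 1.5-fold made up 7.75% of the genes tested, and 4.84% were such calls in the higher direction. Among the 96 genes called higher with at least 100 counts in each pup, Mir148a had the log2 ratio of rank 10. Mir152 was 1.24-fold higher in pup 2, a log2 ratio of 0.30 with an adjusted p of 0.011 by the exact binomial test. For Mir148b the log2 ratio was -0.04 with an adjusted p of 0.69 by the exact binomial test, and it was not called. The median log2 ratio over all tested genes was 0.04, and the SD over detected genes was 0.37.

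**Figure D4:**
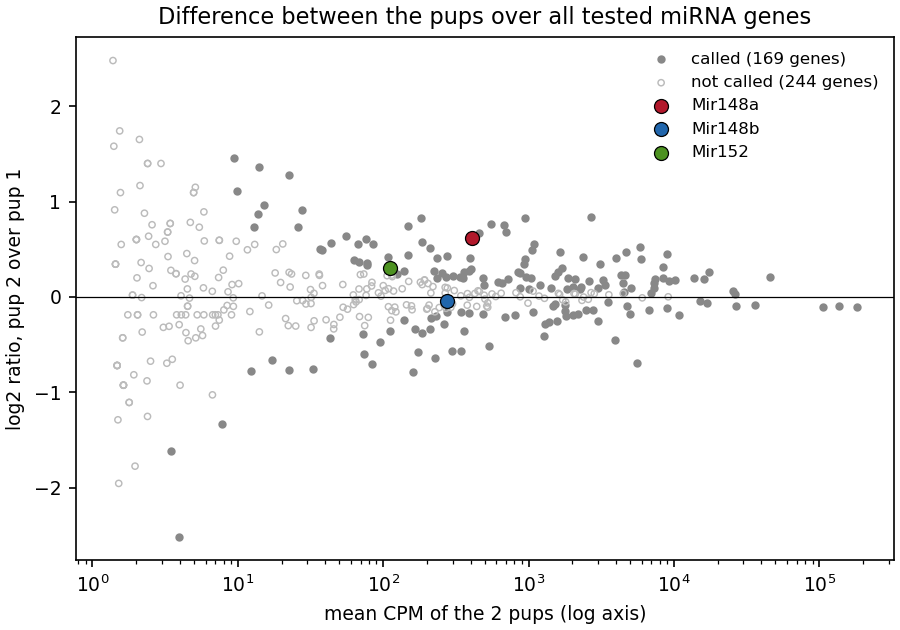
Log2 ratio of pup 2 over pup 1 against the mean CPM (log axis) for the 413 tested miRNA genes, with filled grey points for the 169 called genes and open points for the others. Mir148a (0.62) and Mir152 (0.30) lie above 0 and are called, and Mir148b lies at -0.04 and is not.

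Genes next in rank by mean CPM over the 2 libraries were named as those nearest to each member in level. Mir221 (440 CPM) and Mir543 (428 CPM) lay directly above Mir148a, and Mir455 (404.5 CPM) and Mir16-2 (394 CPM) directly below it. Mir483, Mir218-2, Mir210 and Mir410 stood around Mir148b at 270.6 to 277 CPM, and Mir3059, Mir701, Mir135a-2 and Mir20b around Mir152 at 109 to 112 CPM. Closeness in level did not bring the same call between the pups. Around Mir148a, which was called higher in pup 2, Mir455 (log2 ratio 0.30) and Mir16-2 (0.40) were called higher and Mir221 (-0.10) and Mir543 (0.04) were not called. Around Mir148b, which was not called, Mir483 (0.43) and Mir210 (0.21) were called higher. Around Mir152, which was called higher, Mir701 (-0.35) was called lower.

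The miRNA genes nearest to the members were, where they had counts to speak of, those of the Hox clusters, whose protein-coding genes set position along the body axis. Mir196b, 960.2 kb from Mir148a, had 4259 CPM in pup 2 against 6893 CPM in pup 1, and was called lower in pup 2 (log2 ratio -0.69). Around Mir148b, Mir615 was at 270.1 kb (log2 ratio -0.18) and Mir196a-2 at 311.7 kb (-0.41), and both were called lower in pup 2. Mir10a, 533.1 kb from Mir152, was called lower too (-0.09). Of all tested genes, 15.3% were called lower. Mir148a and Mir152 thus had log2 ratios of the opposite sign to those of these neighbours, whereas Mir148b (-0.04, not called) had the same sign. These neighbours were chosen after the data were seen, and a link to the members was not tested.

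The family was set beside 3 other families whose genes are spread over several chromosomes, the miR-26 genes of the Ctdsp phosphatase introns, the genes of miR-103 and miR-107 in Pank kinase introns and the genes of miR-130 and miR-301. At 889 CPM in pup 2 and 699 CPM in pup 1, the sum of Mir148a, Mir148b and Mir152 was the lowest of the 4. The sums were 14695 CPM in pup 2 and 12785 CPM in pup 1 for miR-26, 2730 and 2980 CPM for miR-103 and miR-107, and 18233 and 18721 CPM for miR-130 and miR-301, each with pup 2 first. Counts were spread more evenly over Mir148a, Mir148b and Mir152, where the leading gene, Mir148a, held 55.9% in pup 2 and 46.1% in pup 1. Mir26b held 99.8% of its family's counts in both pups, Mir107 97.7% in pup 2 and 98.2% in pup 1, and Mir130a 81.5% in pup 2 and 81.9% in pup 1. Both Mir26a genes make the same mature 5p arm and both Mir103 genes the same 3p arm, so their counts cover uniquely placed reads only and the shares of Mir26b and Mir107 are upper values. These are descriptions, and the difference between families was not tested.

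**Figure D5:**
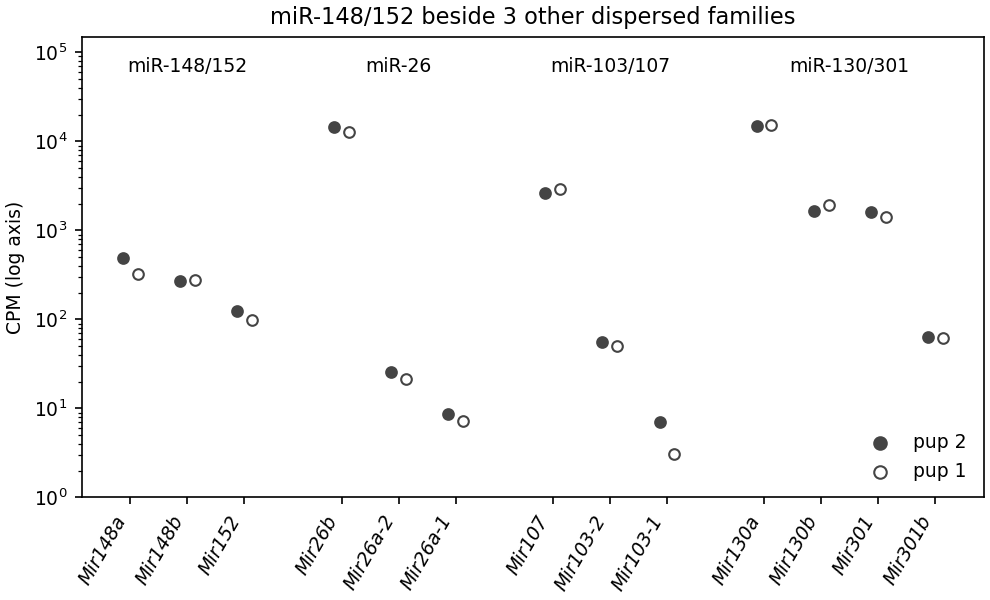
CPM (log axis) of each gene of the 4 families, with filled points for pup 2 and open points for pup 1. Mir148a, Mir148b and Mir152 lie between 99.5 and 496 CPM, whereas Mir26b and Mir130a lie above the other members of their families.

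Genes of other miRNAs reported, mostly in human cells, to act on DNA methyltransferase mRNAs were all measured. Of these 9 genes, 6 were called, against 40.9% of all tested genes. Mir29b-1 and Mir29b-2 entered as 2 genes, each counted by uniquely placed reads only, and were not called. Mir342 (log2 ratio 0.47), Mir29c (0.26), Mir29a (0.12) and Mir143 (0.04) were called higher in pup 2, and Mir126a (-0.10) and Mir101b (-0.08) lower. The median log2 ratio of the 9 was 0.12, against 0.04 over all tested genes. Abundance bears on the calls of this list, since Mir143, at a mean of 6977 CPM, was called at a ratio close to that median over all tested genes. At a mean of 492 CPM ± 29.1, Mir29a was near Mir148a in level, and Mir126a, a miRNA of endothelial cells, was the highest of the list at 26923 CPM ± 1294 (SD, n = 2 each).

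Of 9 genes of other miRNAs reported to act on cholesterol handling, 3 were called higher and 3 lower in pup 2. Of all tested genes, 25.7% were called higher and 15.3% lower. Mir128-1 and Mir128-2 entered this list as 2 genes, each counted by uniquely placed reads only. Mir223 (log2 ratio 0.57), Mir128-1 (0.34) and Mir128-2 (0.25) were higher, and Mir122 (-0.70), Mir27a (-0.24) and Mir27b (-0.16) lower. Mir33, which lies within a gene for a sterol-regulated transcription factor, had 66.9 CPM in pup 2 against 82.4 CPM in pup 1, and was not called. The median of the 9 was -0.20, against 0.04 over all tested genes.

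Markers of cells in which Mir148a or Mir152 could also be made were measured beside the family. Mir122, the miRNA of hepatocytes, had 64.2 CPM in pup 2 against 104 CPM in pup 1, the opposite direction to Mir148a. The 4 pancreas markers summed to 296 CPM in pup 2 and 277 CPM in pup 1. None of the 4 was called, against 40.9% of all tested genes. The 3 measured immune markers summed to 539 CPM in pup 2 and 491 CPM in pup 1. Mir223 (log2 ratio 0.57) was called higher, and Mir150 (-0.09) and Mir155 (-0.16) were not called. Of all tested genes, 25.7% were called higher. The 3 red blood cell markers summed to 168 CPM in pup 2 and 137 CPM in pup 1, with 2 called higher, against 25.7% of all tested genes. The third, Mir144, had a log2 ratio of -0.32 and was not called. The 3 markers of gut, liver and kidney epithelium came to 183 CPM in pup 2 and 169 CPM in pup 1. Neither of the 2 tested was called, against the same 40.9%. The 7 other epithelial markers came to 538 CPM in pup 2 and 499 CPM in pup 1. Of the 6 tested, 1 was called higher, against 25.7% of all tested genes. The other 5 were not called, among them Mir429 (log2 ratio -0.30).

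Of 6 tested mesenchyme markers 4 were called higher in pup 2, against 25.7% of all tested genes, and 2 were not called. The 7 measured summed to 11451 CPM in pup 2 and 10738 CPM in pup 1, with a median log2 ratio of 0.11 against 0.04 over all tested genes. The 5 measured striated muscle markers summed to 105 CPM in pup 2 and 70.6 CPM in pup 1. Of the 2 tested, Mir206 was called higher and Mir133b was not called. Mir1a-1, Mir133a-1 and Mir133a-2 had 0 counts in both pups. These 3 genes belong to copies that make the same mature miRNA, so their 0 counts hold for uniquely placed reads only and do not show absence. Endothelial Mir126a was lower in pup 2. The oligodendrocyte markers summed to 2220 CPM in pup 2 and 1854 CPM in pup 1, with 2 of 3 called higher. Of 8 tested neuronal markers 5 were called higher, and both counts stand against the same 25.7%. Numbered copies such as Mir128-1 and Mir128-2 entered the marker lists as separate genes, by uniquely placed reads only. Neither of the 2 measured markers of neural progenitors, both Mir9 genes, was called, against 40.9% of all tested genes. They summed to 470 CPM in pup 2 and 451 CPM in pup 1. Mir9 copies make the same mature miRNA, so this sum covers uniquely placed reads only and does not give the level of miR-9. The part of these cell types in the difference of Mir148a between the pups was not tested.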

How the data were processed

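The values are raw read counts of miRNA genes that the authors deposited as a table per library, in 3 columns. The deposited text does not name the columns. They were taken as either strand, own strand and opposite strand from the values, because the last pair sums to the first in all 1973 genes and the middle column holds most counts. Their build was mm10 with GENCODE M4, per the deposited text, while aligner and counter were not given in the sources used here. Own-strand counts were used, and read classes that name no gene stayed out of the totals. Own-strand counts were 50.8% of all reads in pup 2 and 50.6% in pup 1, and unmapped reads 11.0% and 10.8%, pup 2 first. Names and positions came from GENCODE M21 (also mm10), where 1894 of 1973 Ensembl identifiers were found. A floor of 3 counts, a fixed setting apart from the 10 counts asked for detection, equalled 0.820 CPM in pup 2 and 0.933 CPM in pup 1.

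The SD over libraries was pooled in 4 classes of mean CPM (0.21 log2 units in the class of Mir148a and Mir148b, 0.23 in that of Mir152). For pairs the limit came from the root mean square of both classes' SDs. Log2 ratios had 0.5 added to each count, and calls were made at an adjusted p of 0.05. Samples came from the labels, where replicates 1 and 2 are pups 1 and 2, littermates; the binomial p-values hold counting error only and no spread between libraries. Named genes were the members, the 2 genes above and the 2 below each in rank, and the lists given in the report. Neighbours on the chromosome were added after the data were seen. The members and lists were chosen with earlier results of these data known. A planned search of the genome for places that match a mature miRNA was replaced by a search of annotated transcripts. Alternatives were scaling by TMM or DESeq2, either-strand counts, changed pseudocounts and count minimums, a total without the most abundant gene, Mir10b, and each pup left out. Markers Mir142, Mir1a-2 and Mir9-1 were not measured as genes of their own. The entry Mir142b had 0 own-strand counts, but 1436 opposite-strand counts in pup 2 and 1076 in pup 1. These are not in the immune sum, which therefore does not give the full level of immune markers. Software was Python 3.11.15 with scipy 1.17.1, Biopython 1.88, numpy 2.4.6, pandas 2.3.3 and matplotlib 3.10.9, and R 4.3.3 with DESeq2 1.42.0 and edgeR 4.0.16.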

Additional observations from a re-analysis of the deposited data

How the results depend on the processing

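No paired analysis was possible because the data hold 1 group. The calls of Mir148a and Mir152 and the lack of one for Mir148b held under TMM and DESeq2 scaling, a total without Mir10b, either-strand counts and count minimums of 1 and 50, with log2 ratios of 0.58 to 0.62 for Mir148a, 0.26 to 0.30 for Mir152 and -0.08 to -0.04 for Mir148b. The differences of Mir148a and Mir148b from Mir152 stayed beyond the spread under pseudocounts of 0.1 and 5, either-strand counts and with each pup left out. The log2 difference of Mir148a over Mir148b was 0.22 to 0.88 with 1 pup left out, and not beyond the spread without pup 2. Without Mir10b in the total, Mir148a stood at 499 CPM, Mir148b at 333 CPM, Mir152 at 136 CPM and the family at 0.0968% of counts. All of these values rose because the total is smaller by construction. Mir148b stood at 267 CPM with either-strand counts, whose total is larger. Requiring 1.5-fold left 32 of the calls, and a minimum of 1 count gave 553 detected genes, both by construction. With 2 pups, leaving out 1 moves a mean by less than its SD, so such values say nothing of stability. At 0.273 to 0.311 CPM per count, counting error limits Mir152 most.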
